A study of Mus musculus with 6 samples.

Results

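Glycolysis and the response to low oxygen were followed through 37 chosen genes in Flk1-positive mouse cells with and without Ldb1. Each gene was read by the probe sets that the array annotation gives to that gene alone, and where several existed, the one with the highest mean over the arrays was used. This found 34 of the 37 genes among the 18193 genes with a probe set of their own: 18 of 20 genes of glucose uptake and glycolysis, 10 of 11 other hypoxia targets and 6 of 6 regulators of the response. Gpi1, Eno1 and Bnip3l were not analysed here, Bnip3l because its probe sets also match a pseudogene. The cells were sorted for Flk1, the VEGF receptor encoded by Kdr, from day 4 embryoid bodies, which are aggregates of differentiating embryonic stem (ES) cells. The ES cells were Ldb1+/+ (wild type) or Ldb1-/- (knockout), with 3 biological replicates each, so 6 arrays in all. Flk1-positive cells at this stage hold the blast colony precursors of blood and endothelium. LDB1 is an adaptor that joins LIM-domain proteins into transcription factor complexes. The labels do not say whether each genotype was 1 ES cell clone or whether the replicates came from separate differentiations, so p-values measure the spread between these arrays, which may be partly technical.

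Cells break glucose down to pyruvate in glycolysis, and when oxygen is scarce they turn pyruvate into lactate and export it. The transcription factor HIF, a dimer of an oxygen-regulated alpha subunit (HIF1A or EPAS1) and ARNT, drives genes of glucose uptake, glycolysis and lactate export, and others of matrix assembly, mitophagy and growth arrest. With oxygen present, the prolyl hydroxylases EGLN1 and EGLN3 mark the alpha subunit and VHL leads it to degradation, so the activity of the pathway is set by protein more than by the level of the Hif1a transcript. Early mouse embryos and ES cells in culture are known for high rates of glycolysis.

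Ldb1 itself read 7.78, 7.31 and 8.31 in wild-type replicates 1, 2 and 3 and 7.25, 6.60 and 8.25 in the knockout replicates, on the log2 scale used throughout. These groups overlapped. The deleted stretch of Ldb1 is not given in the labels, and 1 probe set reads the gene, so its level may not check the genotype. Kdr read between 11.78 and 12.44 in wild-type and between 11.33 and 12.19 in knockout arrays. Array medians were 5.71 to 5.77. Both arrays of replicate 3 stood apart in the 3′ control probe set for 18S ribosomal RNA, at 11.93 and 12.10, against 8.51 to 9.39 in the other 4. They also stood apart in the 5′ control probe set for Gapdh, at 12.93 and 12.93, against 10.19 to 11.11. The 3′ Gapdh control was 14.37 to 14.49 over all 6 arrays. Arrays with the same replicate number deviated together, as described with the processing, so differences of the main genes are also given by number, as knockout minus wild type for number 1, 2 and 3.

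Most glycolytic genes read lower in knockout arrays, but by little, and none passed the test. Of the 18 glycolytic genes 17 were lower, with a median difference of −0.33, where 53.7% of all 18193 genes were lower with a median of −0.01. Of the 10 other hypoxia targets 7 were lower, with a median of −0.16, and of the 6 regulators 3 were lower, with a median of 0.000611. Single arrays decided much of this: without wild-type replicate 1 or knockout replicate 3, the glycolytic median was −0.13 or −0.15 and that of the other targets 0.03 or 0.02. In the limma fit across all genes, with Benjamini-Hochberg adjustment, 0 of the 34 genes passed an adjusted p of 0.05, where 4 of all genes did (0.022%). With the replicate number as a block, 0 of 34 passed, where 62 of all genes did (0.341%). At an unadjusted p under 0.05, 4 of the 34 were lower and 0 higher without the block, against a background of 3.85% in both directions, and 6 were lower and 0 higher with it, against 8.94%. The genotypes did not overlap, with every knockout array below every wild-type array, in 4 of the 34: Aldoc, Slc16a3, Ldhb and P4ha2. Among all genes 4.47% were of this kind, and 3.45% had every knockout array above every wild-type array, which no member did.

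**Figure D1:**
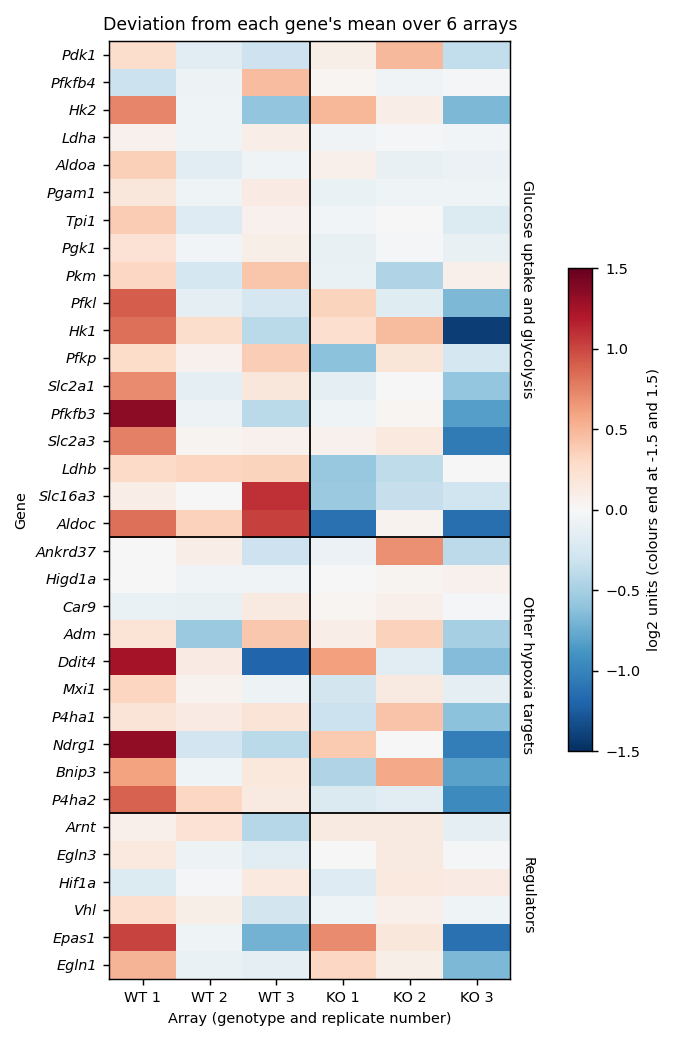
Heat map of the log2 level of each of the 34 genes (rows) in the 6 arrays (columns; WT wild type, KO knockout, with the replicate number), as the deviation from that gene's mean over the arrays; red is above the mean and blue below. Wild-type replicate 1 was the highest array for 19 genes and knockout replicate 3 the lowest for 17.

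Values also differed between arrays of 1 genotype. Wild-type replicate 1 was the highest of the 6 arrays for 19 of the 34 genes (55.9%, against 18.8% of all genes), and knockout replicate 3 was the lowest for 17 (50%, against 23.7%). The median deviation of the glycolytic genes from their own means was 0.34, −0.07 and 0.09 in wild-type replicates 1, 2 and 3 and −0.06, −0.01 and −0.28 in the knockout replicates. For the other hypoxia targets it was 0.26, −8.1e-05 and 0.04, and −0.05, 0.11 and −0.56. By these medians wild-type replicate 1 and knockout replicate 3 lay apart, and the other 4 arrays were closer to each other. Those 4 were not alike in every respect. Wild-type replicates 2 and 3 were the highest array for 1 and 10 of the 34 genes, and knockout replicates 1 and 2 for 0 and 3. The share of all genes was not taken for these arrays. Knockout replicate 3 also had the highest 18S ribosomal control value, 12.10, with wild-type replicate 3 at 11.93, and the part of this in the values was not tested.

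Within replicate numbers the genes were lower in knockout arrays of numbers 1 and 3 and not of number 2. The difference was below 0 in 30 of 34 genes in number 1, in 9 of 34 in number 2 and in 29 of 34 in number 3, against 50.2%, 49.2% and 51.9% of all genes. The medians of the glycolytic genes were −0.49, 0.06 and −0.38, those of the other hypoxia targets −0.56, 0.23 and −0.40, and those of the regulators −0.18, 0.17 and 0.06. A run of lower, higher and lower over the numbers was seen in 20 of the 34 genes (58.8%) and in 10.4% of all genes. Only 6 of the 34 genes were lower in all 3 numbers (17.6%, against 14.9% of all genes): Aldoc, Slc16a3, Ldhb, Pkm, Pfkl and P4ha2. None was higher in all 3. Among genes as a whole with a mean above the median of all probe sets, which 33 of the 34 share, the median in number 3 was 0.12, so the lower values there ran against that of genes at such levels.

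**Figure D2:**
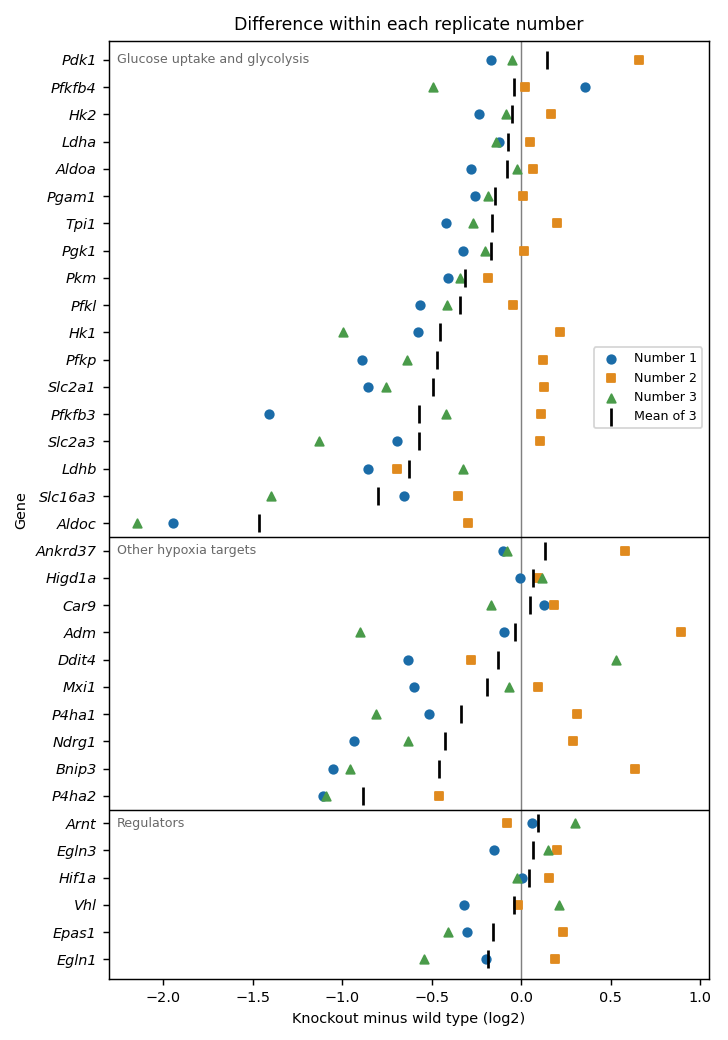
Knockout minus wild-type difference in log2 units (x axis) within replicate number 1, 2 and 3 (coloured points) for each of the 34 genes (y axis), with the mean of the 3 as a black bar. The points of number 2 lie at or above 0 for 25 genes, while those of numbers 1 and 3 lie below 0 for 30 and 29.

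Glucose enters through the transporters GLUT1 and GLUT3. Slc2a1, which encodes GLUT1, read 12.51, 11.67 and 11.98 in wild-type and 11.66, 11.79 and 11.22 in knockout arrays. Wild-type replicate 1 was the high array and the groups overlapped, with a difference of −0.50 (SE 0.26; limma, adjusted p = 1.00, blocked 0.567). By number it was −0.86, 0.13 and −0.76. Its 3 probe sets differed by between −0.58 and −0.50. Slc2a3, which encodes GLUT3, read 13.30, 12.59 and 12.61 in wild-type and 12.61, 12.69 and 11.48 in knockout arrays. Here knockout replicate 3 was the low array, and the difference of −0.57 (SE 0.37; limma, adjusted p = 1.00, blocked 0.530) shrank to −0.18 without it. By number it was −0.69, 0.10 and −1.13.

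For 6 genes of the early, regulated steps the mean differences were all below 0, but on the probe sets used Pfkl alone was lower in every number. In number 2 Hk1, Hk2, Pfkp, Pfkfb3 and Pfkfb4 were higher in the knockout array, by 0.22, 0.17, 0.12, 0.11 and 0.02. This depended on the probe set. A Pfkp probe set with a mean of 8.80 was lower in every number (−0.83, −0.32 and −0.20). A Pfkl probe set with a mean of 10.68 was lower in every number (−0.55, −0.07 and −0.23). Another, with a mean of 6.61, was higher in every number (0.005, 0.20 and 0.12). The mean differences of Hk2 and Pfkfb4 were far smaller than their SE of 0.41 and 0.21. The hexokinase genes Hk1 and Hk2, whose enzymes trap glucose in the cell, differed by −0.45 and −0.05. Hk1 spanned 6.81 to 8.05 in wild-type and 5.82 to 7.70 in knockout arrays, so its difference lay within the spread between replicates. The phosphofructokinase genes Pfkl and Pfkp, of the main rate-setting step, differed by −0.34 and −0.47, and Pfkfb3 and Pfkfb4, which make and break the activator of that step, by −0.57 and −0.04. Pfkfb3 was high in 1 array, wild-type replicate 1 at 8.74, and lay between 6.57 and 7.43 in the other 5. Adjusted p was 1.00 for each of these 6 genes in limma and between 0.584 and 0.985 with the block.

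In the lower pathway Aldoa, Tpi1, Pgk1, Pgam1, Pkm and Ldha read a mean of at least 13.05 on their probe sets. Pkm differed by −0.31, and the other 5 by between −0.17 and −0.07. Pgk1, of the first step that yields ATP, read 14.10, 13.84 and 13.97 in wild-type and 13.77, 13.86 and 13.77 in knockout arrays, a difference of −0.17 (SE 0.13; limma, adjusted p = 1.00, blocked 0.858). Ldha, whose product turns pyruvate to lactate, read 14.25, 14.12 and 14.28 in wild-type and 14.12, 14.16 and 14.13 in knockout arrays, a difference of −0.07 (SE 0.12; limma, adjusted p = 1.00, blocked 0.958). Wild-type replicate 2 was within or below the knockout values in both genes. Pkm, the pyruvate kinase gene, read 13.41, 12.83 and 13.52 in wild-type and 13.00, 12.65 and 13.18 in knockout arrays. The groups overlapped, but the knockout array was the lower within every number, at −0.41, −0.19 and −0.34 (mean −0.31, SE 0.23; limma, adjusted p = 1.00, blocked 0.537).

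Of the whole glycolytic group, Pdk1 was the 1 gene that read higher. Its product, a kinase, closes the entry of pyruvate into the mitochondrial citric acid cycle. The difference of 0.14 (SE 0.26) came from number 2, at 0.66, while numbers 1 and 3 were at −0.17 and −0.05, and it did not pass (limma, adjusted p = 1.00).

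Aldoc, the gene of an aldolase best known from brain, had the largest difference of the 34. It read 9.10, 8.63 and 9.30 in wild-type and 7.16, 8.33 and 7.15 in knockout arrays. All 3 knockout arrays lay below the wild-type arrays, but knockout replicate 2 was far above the other knockout arrays. The means were 9.01 ± 0.35 and 7.54 ± 0.68 (SD, n = 3), a difference of −1.46 (SE 0.36; limma, adjusted p = 0.669, blocked 0.212), or 2.76-fold. By number it was −1.94, −0.30 and −2.15. Among all 18193 genes 31 had a lower difference. It was −1.86 without knockout replicate 2 and −1.27 without knockout replicate 3. A second Aldoc probe set was dim, at 3.74 to 4.05 in every array, and showed no such difference (0.04), so the mean of both was −0.71.

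Slc16a3 encodes MCT4, a transporter that exports lactate. It read 8.57, 8.48 and 9.56 in wild-type and 7.91, 8.12 and 8.17 in knockout arrays. The groups did not overlap, and wild-type replicate 3 stood well above the rest. The difference was −0.80 (SE 0.30; limma, adjusted p = 1.00, blocked 0.268), or 1.74-fold, and it was −0.45 without wild-type replicate 3. By number it was −0.65, −0.35 and −1.40. Slc16a1, for the more widely expressed transporter MCT1, was not among the 37 genes and differed by −0.07.

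Ldhb encodes the lactate dehydrogenase subunit that favours the return of lactate to pyruvate. It read 11.76, 11.79 and 11.81 in wild-type and 10.90, 11.09 and 11.48 in knockout arrays. The wild-type arrays were close together and all above the knockout arrays, with means of 11.79 ± 0.03 and 11.16 ± 0.30 (SD, n = 3). The difference was −0.63 (SE 0.17; limma, adjusted p = 0.806, blocked 0.224), or 1.54-fold. All 4 Ldhb probe sets gave values of this size, from −0.63 to −0.57. Within numbers it was −0.86, −0.70 and −0.33, so it was lower in number 2 by more than in number 3, where most of the other genes were not lower in number 2 at all.

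Among the other hypoxia targets, P4ha2 differed most. It encodes a catalytic subunit of the collagen prolyl 4-hydroxylase, needed for stable collagen. It read 10.05, 9.46 and 9.29 in wild-type and 8.94, 8.999 and 8.20 in knockout arrays. The groups did not overlap, and knockout replicate 3 was the lowest array. The means were 9.60 ± 0.40 and 8.71 ± 0.44 (SD, n = 3), a difference of −0.89 (SE 0.29; limma, adjusted p = 1.00, blocked 0.123), or 1.85-fold. By number it was −1.11, −0.46 and −1.09. P4ha1, for the other main catalytic subunit, spanned 9.77 to 9.84 in wild-type and 9.03 to 10.08 in knockout arrays, a difference of −0.34. A dimmer P4ha1 probe set, with a mean of 6.73, was lower in every number (−0.88, −0.28 and −0.07).

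**Figure D3:**
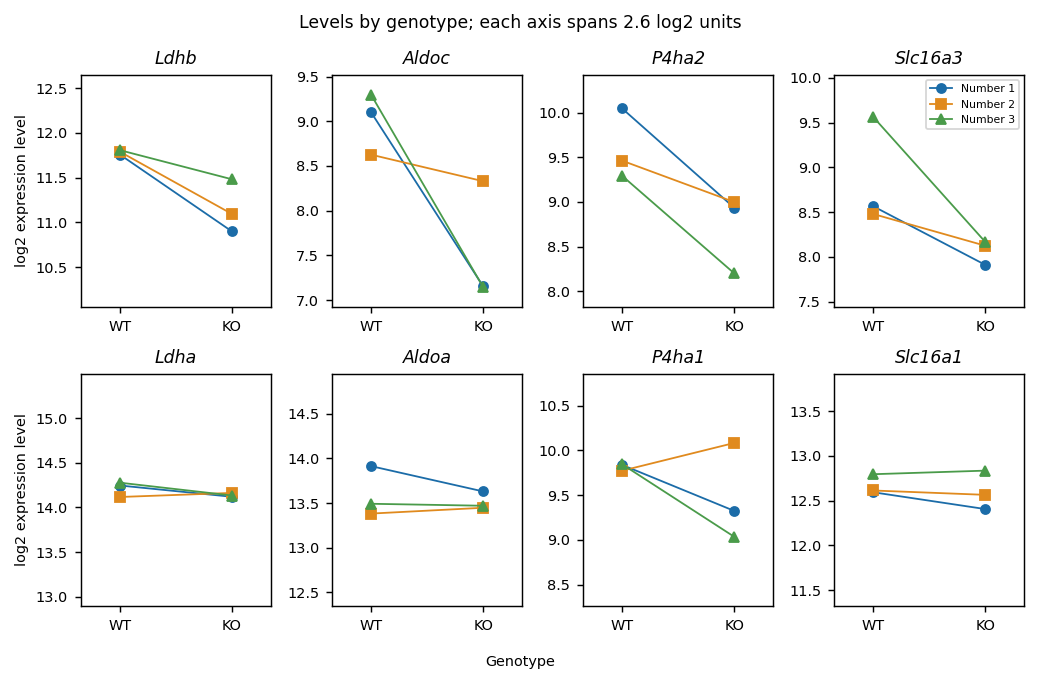
Log2 expression level (y axis, the same span in each panel) by genotype (x axis; WT wild type, KO knockout) for the 4 genes whose genotypes did not overlap (top) and a relative of each (bottom), with a line joining the arrays of 1 replicate number. The lines of the top row all go down from WT to KO, which follows from choosing genes without overlap. On the probe sets used, each relative has at least 1 line that goes up, by 0.05 for Ldha, 0.06 for Aldoa, 0.31 for P4ha1 and 0.04 for Slc16a1.

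The test of each difference between relatives was an exact permutation test over the 6 arrays, two-sided, on the log2 difference between the genes within an array. With 3 arrays against 3, the smallest p it can give is 0.1. The test ignored the replicate number, though arrays of the same number deviated together, so its p-values are only a rough guide. Ldhb differed from Ldha by a further −0.55, Aldoc from Aldoa by −1.38 and Slc16a3 from Slc16a1 by −0.74, each with an exact p of 0.1, or 0.2 after Benjamini-Hochberg adjustment over the 6 pairs of relatives compared. P4ha2 differed from P4ha1 by −0.55 (exact p = 0.2, adjusted 0.3), Hk1 from Hk2 by −0.40 (exact p = 0.4, adjusted 0.48) and Pfkp from Pfkl by −0.12 (exact p = 0.7, adjusted 0.7). Ldhb, Aldoc, Slc16a3 and P4ha2 were set against relatives because their genotypes did not overlap, so these contrasts partly restate that choice. Ldha, Aldoa and Slc16a1 had means of 14.18, 13.56 and 12.63, against 11.47, 8.28 and 8.47 for Ldhb, Aldoc and Slc16a3. The highest mean of all genes was 14.85. These contrasts thus set probe sets of unlike level side by side, and the part of the level in them was not tested.

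The promoters of the 4 genes and of Ldha are shown because HIF acts through a short core, spelled ACGTG or GCGTG on either strand, which stands in capitals below. Each run is the 250 bases before a transcript start, 5′ to 3′ on the gene's strand, from RefSeq on GRCm38.p6, with the upstream one taken where the table lists several starts. They are chr11:78322823-78323072 (+) for Aldoc, chr11:120948817-120949066 (+) for Slc16a3, chr6:142507958-142508207 (−) for Ldhb, chr11:54100674-54100923 (+) for P4ha2 and chr7:46845554-46845803 (+) for Ldha.
Aldoc: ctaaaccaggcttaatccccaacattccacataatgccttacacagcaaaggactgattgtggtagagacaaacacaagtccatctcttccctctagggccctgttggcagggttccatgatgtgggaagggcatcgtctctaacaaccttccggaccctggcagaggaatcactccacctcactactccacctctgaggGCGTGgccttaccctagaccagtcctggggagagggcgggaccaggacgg
Slc16a3: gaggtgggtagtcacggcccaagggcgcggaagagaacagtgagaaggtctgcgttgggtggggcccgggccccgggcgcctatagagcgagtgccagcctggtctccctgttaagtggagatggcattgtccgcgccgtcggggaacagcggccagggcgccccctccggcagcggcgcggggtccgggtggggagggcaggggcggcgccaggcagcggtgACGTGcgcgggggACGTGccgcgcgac
Ldhb: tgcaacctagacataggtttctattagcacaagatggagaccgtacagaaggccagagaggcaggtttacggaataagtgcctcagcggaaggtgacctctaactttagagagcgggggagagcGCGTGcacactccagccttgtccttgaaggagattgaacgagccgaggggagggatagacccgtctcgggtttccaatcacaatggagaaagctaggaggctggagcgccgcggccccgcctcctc
P4ha2: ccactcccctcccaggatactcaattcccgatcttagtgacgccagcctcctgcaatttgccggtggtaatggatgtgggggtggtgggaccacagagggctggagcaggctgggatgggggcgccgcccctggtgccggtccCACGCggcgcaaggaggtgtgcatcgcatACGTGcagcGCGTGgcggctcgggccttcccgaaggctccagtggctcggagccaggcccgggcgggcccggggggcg
Ldha: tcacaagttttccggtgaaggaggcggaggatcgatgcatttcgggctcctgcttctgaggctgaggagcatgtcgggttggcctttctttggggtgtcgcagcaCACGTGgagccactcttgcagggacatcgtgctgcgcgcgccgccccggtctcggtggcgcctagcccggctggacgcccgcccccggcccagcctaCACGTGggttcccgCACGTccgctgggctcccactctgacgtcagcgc

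The core was found once in the windows of Aldoc and Ldhb, 2 times in that of Slc16a3, 3 times in that of P4ha2 and 5 times in that of Ldha, where matches on opposite strands overlap in 3 capital runs. Bnip3, not printed, also had 5 matches, in 4 runs. Such a core was common: 34 of 41 windows of 31 of the genes held it (82.9%), as did 56.4% of 11646 windows of array genes above the median level and 38.6% of all 32851 windows. A GATA motif, spelled GATA with A or T before it and A or G after it on either strand, the kind bound by the GATA partners of LDB1, was in 5 of the 41 windows (12.2%), in 16.5% of the windows of array genes above the median level and in 26.5% of all windows. It was in none of the 5 windows printed. A match describes letters only, and the windows are too short to speak of distant sites.

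Of the 10 other hypoxia targets 6 showed the run of lower, higher and lower over the numbers, and Ddit4, Higd1a and Car9, as well as P4ha2, did not. Bnip3, of mitophagy, read 12.06, 11.39 and 11.62 in wild-type and 11.01, 12.03 and 10.66 in knockout arrays. Knockout replicate 2 was among the highest arrays and knockout replicate 3 the lowest, giving a difference of −0.46 (SE 0.37; limma, adjusted p = 1.00, blocked 0.820) and −1.05, 0.64 and −0.96 by number. Ndrg1, a stress and differentiation gene, read 9.86, 8.24 and 8.12 in wild-type and 8.93, 8.53 and 7.49 in knockout arrays, so that wild-type replicate 1 lay apart. Its difference of −0.43 (SE 0.55; limma, adjusted p = 1.00, blocked 0.719) turned to 0.13 without that array. Higd1a, of mitochondrial respiration, was the brightest of these genes and nearly flat. It read 12.94, 12.90 and 12.89 in wild-type and 12.94, 12.99 and 13.00 in knockout arrays, a difference of 0.07 (limma, adjusted p = 1.00), while a dimmer probe set of it gave 0.46.

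Ddit4, an inhibitor of mTORC1 signalling, had the widest spread, from 9.22 to 11.66 in wild-type and 9.75 to 11.03 in knockout arrays, with a difference of −0.13. Adm, for the vessel-acting peptide adrenomedullin, was higher by 0.89 in number 2 and lower by −0.90 in number 3, with a mean of −0.03. Ankrd37 and Mxi1, a Myc antagonist, differed by 0.13 and −0.19. Car9, a carbonic anhydrase gene often used as a mark of hypoxia, read 5.15 to 5.40 over all 6 arrays, below the median of all probe sets (5.74), and was the 1 gene of the 34 at such a level. The limma adjusted p was 1.00 for each of these 5 genes without the block.

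The regulators showed the smallest differences. Hif1a read 12.23, 12.41 and 12.57 in wild-type and 12.23, 12.57 and 12.55 in knockout arrays, with replicate 1 of both genotypes low and a difference of 0.04 (SE 0.16; limma, adjusted p = 1.00, blocked 0.977). Its other probe sets above the median gave 0.12 and 0.42. Epas1, for the alpha subunit best known from endothelium, read 7.57, 6.50 and 5.86 in wild-type and 7.27, 6.74 and 5.45 in knockout arrays. The arrays differed far more within a genotype than between them, and the difference of −0.16 was small beside that spread (SE 0.58; limma, adjusted p = 1.00, blocked 0.922). Arnt, for the shared partner of the alpha subunits, read 7.56, 7.69 and 7.04 in wild-type and 7.62, 7.61 and 7.35 in knockout arrays, a difference of 0.09.

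Egln1 read 10.84, 10.24 and 10.20 in wild-type and 10.64, 10.43 and 9.65 in knockout arrays, with wild-type replicate 1 highest, knockout replicate 3 lowest and a difference of −0.18 (SE 0.30; limma, adjusted p = 1.00, blocked 0.901). Egln3, itself a hypoxia target, read 10.89, 10.68 and 10.58 in wild-type and 10.74, 10.88 and 10.72 in knockout arrays, a difference of 0.06. Vhl spanned 8.03 to 8.56 in wild-type and 8.24 to 8.38 in knockout arrays, a difference of −0.04. For Arnt, Egln3 and Vhl the limma adjusted p was 1.00 without the block and 0.945 to 0.978 with it. None of the 6 regulators held one direction in all 3 numbers.

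Of the 34 genes 19 had more than 1 probe set above the median level, and in 15 of these the probe sets pointed one way. Arnt, Pfkl, Adm and Mxi1 had probe sets of both signs. The spread between probe sets was widest in Pfkl, at −0.34 to 0.11, Pfkfb3, at −0.57 to −0.14, Higd1a, at 0.07 to 0.46, and Hif1a, at 0.04 to 0.42.

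**Figure D4:**
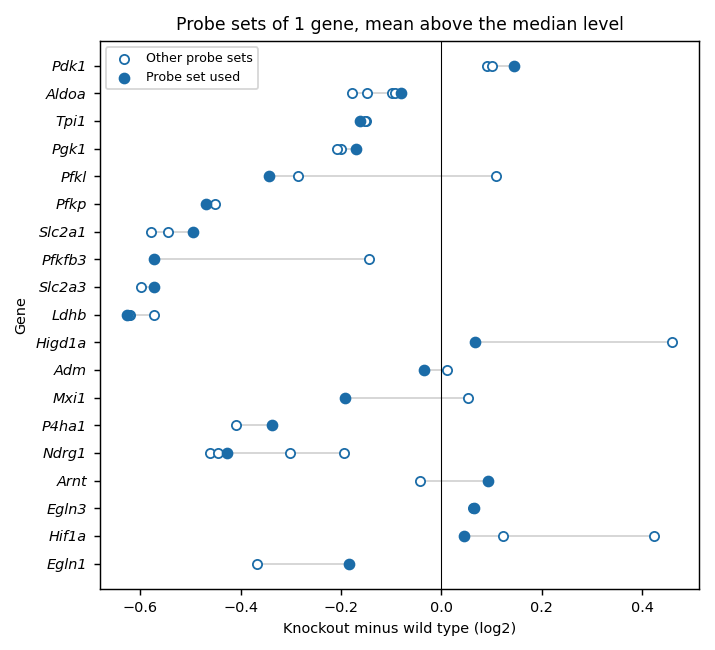
Knockout minus wild-type difference in log2 units (x axis) of each probe set with a mean above the median of all probe sets, for the 19 genes with more than 1 (y axis); filled points are the probe sets used. The 4 Ldhb probe sets lie within −0.63 to −0.57, while those of Pfkl fall on both sides of 0.

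Of the 4 genes whose genotypes did not overlap, Aldoc, P4ha2 and Slc16a3 lie on chromosome 11 and Ldhb on chromosome 6. No other of the 34 genes lies on chromosome 11. Genes of chromosome 11 as a whole read lower in knockout arrays: 80.4% of 1443 were lower, with a median of −0.17, and among 949 above the median level the median was −0.23. On chromosome 11 every knockout array was below every wild-type array in 13.2% of genes, against 3.33% on chromosome 6. Of the 949, 2, 14 and 18 had a lower difference than Aldoc, P4ha2 and Slc16a3. These 3 genes were singled out by their low knockout values, so a place at the low end follows partly from that choice. The medians of the 949 by number were −0.22, −0.34 and −0.14, and these 3 genes differed least in number 2. The part of the chromosome in their differences was not tested. Egln1 and Ankrd37 lie on chromosome 8, whose genes read higher, with a median of 0.15. Without the 5 genes of chromosomes 8 and 11, a choice made after seeing the data, the median was −0.24 for the glycolytic genes, −0.16 for the other targets and 0.04 for the regulators.

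**Figure D5:**
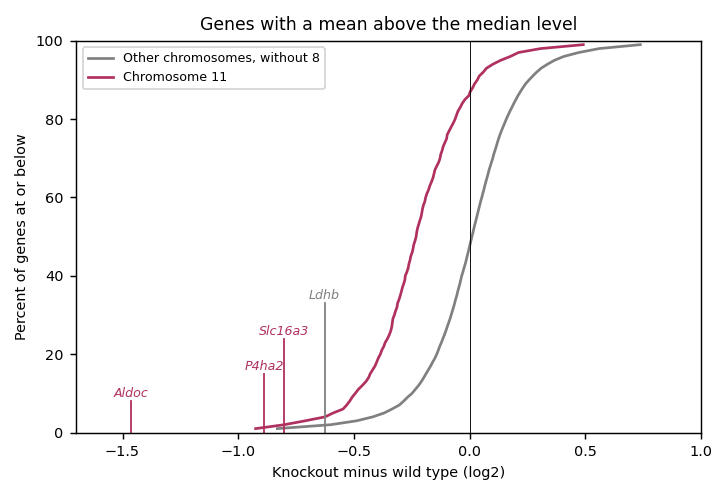
Percent of genes (y axis) at or below a given knockout minus wild-type difference in log2 units (x axis), among genes with a mean above the median level, for chromosome 11 (red) and for all chromosomes other than 8 and 11 (grey); upright lines mark 4 genes in the colour of their curve, with heights chosen for the names. The red curve lies to the left, with a median of −0.23, and Aldoc lies beyond its 1st percentile.

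With the block, calls among the 34 genes depended on the arrays and on the variance model. Without both arrays of number 2, Aldoc, Slc16a3, P4ha2 and Bnip3 passed in the blocked fit (limma, adjusted p = 1.9e-05, 0.0330, 0.0119 and 0.0234), where 267 of all genes did (1.47%). Without both arrays of number 3, Aldoc, Ldhb and P4ha2 passed (limma, adjusted p = 0.0343, 0.00482 and 0.0138), where 815 of all genes did (4.48%). With a trended robust variance beside the block, chosen after seeing the data, Ldhb and P4ha2 passed (limma, adjusted p = 0.0153 and 0.0178), where 264 of all genes did (1.45%). The first 2 of these fits rest on 4 arrays, and number 2 is the one that went the other way in most of the genes, so that leaving it out raises their differences by construction.

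Other genes of the same pathways were read from lists of textbook members. Of 26 further hypoxia targets measured 17 were lower (65.4%, against 53.7% of all genes), with a median of −0.11. With the block Car12 alone passed, where 0.341% of all genes did. This gene of a membrane carbonic anhydrase read 8.32, 8.27 and 7.36 in wild-type and 6.26, 6.99 and 6.09 in knockout arrays. The groups did not overlap, and the difference was −1.53 in both fits (−2.05, −1.28 and −1.27 by number). It passed with the block (limma, adjusted p = 0.0334) and not without it (adjusted p = 0.550). The other 2 Car12 probe sets were dimmer and gave −0.21 and −0.04. Ak4, a mitochondrial adenylate kinase gene, read 10.65, 10.00 and 10.09 in wild-type and 9.54, 9.68 and 8.68 in knockout arrays, a difference of −0.95, with −1.11, −0.32 and −1.41 by number. Narf, on chromosome 11, read 8.25, 8.44 and 8.78 and then 7.82, 8.21 and 7.82, a difference of −0.54. Hmox1, of haem breakdown and on chromosome 8, was the higher one, with 7.49, 7.66 and 7.58 in wild-type and 7.77, 8.24 and 7.97 in knockout arrays, a difference of 0.41. The genotypes overlapped in none of the 3 genes, yet none passed (limma, adjusted p = 1.00, blocked 0.197, 0.380 and 0.386). Vegfa, a main hypoxia target, differed by −0.30, 0.98 and −0.70 by number, with a mean of −0.01.

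Of 20 further glycolytic genes measured 15 were lower (75%, against 53.7% of all genes), with a median of −0.08. Among them Pgk2, Slc2a2 and Pdk2 had means of 3.82, 3.62 and 4.23, well below the median of all probe sets. With the block Ldhc alone passed, where 0.341% of all genes did. Ldhc, for the lactate dehydrogenase of testis, read 6.10, 6.44 and 5.86 in wild-type and 4.91, 5.31 and 5.02 in knockout arrays, near the median of all probe sets. The groups did not overlap, and the difference was −1.06 in both fits (−1.20, −1.13 and −0.84 by number). It passed with the block (limma, adjusted p = 0.0419) and not without it (adjusted p = 0.385), and a second probe set gave −1.19. Of 9 further regulators 4 were lower (44.4%), with a median of 0.02. Of 20 genes of the pyruvate dehydrogenase complex and citric acid cycle 14 were lower (70%), with a median of −0.06. Their medians by number were −0.15, −0.06 and 0.06, and 0 passed in either fit. The run of lower, higher and lower over the numbers was seen in 7 of the 26 further hypoxia targets (26.9%), 5 of the 20 further glycolytic genes (25%) and 2 of these 20 genes (10%), against 10.4% of all genes.

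Markers of other cell types differed beside these genes, and their part in the values was not tested. In bulk RNA, fewer cells of a kind and less RNA per cell cannot be told apart. Of 5 primitive erythroid markers 5 were lower, and the log2 of their summed level was 9.47 to 9.77 in wild-type and 7.57 to 7.77 in knockout arrays. It was 11.02 to 11.90 and 10.23 to 10.36 for 5 cardiac mesoderm markers, of which 4 were lower, and 9.95 to 10.10 and 9.85 to 11.36 for 4 pluripotency markers, of which 4 were higher. Of the erythroid markers Hbb-bh1, Hbb-y and Gata1, at −3.89, −1.71 and −1.31, did not overlap between genotypes, while Hba-x and Klf1, at −0.24 and −0.29, did. The mean of Hbb-y was 4.27, below the median of all probe sets (5.74), and its other probe sets gave −1.65 and −0.23. Hba-x and Klf1 were also dim, with means of 5.09 and 5.77. Of the cardiac markers Hand2 and Myl7, at −2.70 and −1.44, did not overlap, while Tbx5, Nkx2-5 and Isl1, at −0.39, −0.08 and 0.006, did. Of the pluripotency markers Zfp42 alone, at 0.78, did not overlap. Among all genes 4.47% were lower and 3.45% higher in knockout arrays without overlap. Zfp42 and Hand2 lie on chromosome 8, whose genes read higher as a whole (median 0.15). Myl7 lies on chromosome 11, whose genes read lower (median −0.17). The part of the chromosome in these markers was not tested. The endothelial sum was lowest in knockout replicate 3, at 6.67, and highest in knockout replicates 1 and 2, at 8.69 and 8.96, with wild-type arrays at 7.58 to 7.92. This sum mostly followed Tek and Cdh5, which read 7.55, 8.09 and 4.76 and 7.32, 7.13 and 4.49 in knockout arrays. The means of Pecam1, Tie1 and Emcn were 4.66, 4.71 and 3.85, below the median of all probe sets. Knockout replicate 3 was also the array with the highest pluripotency sum, 11.36, and the lowest array for 17 of the 34 genes. Pou5f1 read 9.33, 9.29 and 9.28 in wild-type and 9.65, 8.85 and 10.82 in knockout arrays. Nanog read 8.07, 7.98 and 8.10 in wild-type and 7.78, 8.02 and 9.26 in knockout arrays. The higher knockout means of both genes thus rested on knockout replicate 3, while Zfp42 and Sox2 were higher in every number. The visceral endoderm sum was 8.91 to 9.11 and 7.99 to 8.98, and that of the Flk1-positive mesoderm markers 12.86 to 13.66 and 12.33 to 13.17. The visceral endoderm sum mostly followed Sox17, at 8.34, 8.45 and 7.43 in wild-type and 8.17, 7.96 and 5.86 in knockout arrays. The means of Afp, Apoa1, Hnf4a and Ttr were 4.94, 5.66, 6.04 and 6.18.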

How the data were processed

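Expression was measured on 6 Affymetrix Mouse Genome 430 2.0 arrays, and the authors deposited 1 log2 value per probe set and array. RMA and affy are named in the submitters' processing notes, without versions or roles. Of 45101 probe sets, 64 were controls, 34945 had 1 annotated gene, 932 several and 9160 none.

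Genotypes were compared with limma 3.58.1 (lmFit, eBayes) in R 4.3.3 over 18193 genes, with Benjamini-Hochberg adjustment at 0.05, both without and with a block for the replicate number. What a number stands for is not given in the labels. Deviations from the genotype mean correlated across genes at 0.707, 0.322 and 0.456 between arrays of number 1, 2 and 3, which was taken as pairing. The fits were tested on simulated data. Alternatives left out arrays or replicate numbers, changed the choice of probe sets, or changed the weights or the variance model. Figures used Python 3.11.15 with matplotlib 3.10.9. The number of arrays limits the precision.

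Values in every array are given for members past the threshold or an unadjusted p of 0.05 in either fit, members without overlap, and the 3 largest differences and 2 highest means of each role. For other pathway genes they are given where a gene passed in either fit, had an unadjusted p under 0.05 without the block or was among the 3 largest differences. Slc2a1, Slc16a1 and Vegfa, and the members given by a range, were singled out with their values known. The members and lists were chosen with earlier results of these data known.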

Additional observations from a re-analysis of the deposited data

How the results depend on the processing

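The number of all genes past the threshold was 4 in the unblocked fit and 62 with the replicate block. With 1 array left out it ran from 1 to 6. Without both arrays of number 1, 2 or 3 it was 1, 1 and 2 unblocked and 50, 267 and 815 with the block. It was 68 with array weights, and 264 with the block and a trended robust variance, added after seeing the data. The number of the 34 genes past the threshold was 0, and became 4 and 3 with the block and without both arrays of number 2 or 3, and 2 with the block and the trended variance. It was 0 in the other 18 settings. The block on its own changed no call among the 34 genes.

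The glycolytic median lay between −0.47 and −0.13 over 22 settings and kept its sign. That of the other hypoxia targets lay between −0.42 and 0.03, turning above 0 without wild-type replicate 1 (0.03), without knockout replicate 3 (0.02) and without both arrays of number 1 (0.00104), and that of the regulators between −0.15 and 0.11. Of 336 differences of the 16 genes given in every array by the rule, 316 kept their sign. With 1 array left out, the range crossed 0 for Egln1 (−0.38 to 0.11), Epas1 (−0.55 to 0.36), Arnt (−0.10 to 0.22), Hif1a (−0.0450 to 0.15), Egln3 (−0.00475 to 0.15) and Ndrg1 (−0.74 to 0.13). Without both arrays of number 2, Hif1a was at −0.0104 and Egln3 at −0.00379 in either fit, and without number 3 Arnt was at −0.0110. Without _x_at and _s_at probe sets Arnt was at −0.0433. Array weights gave −0.0947 for Arnt, 0.00819 for Ldha and 0.0564 for Bnip3. The cause was not tested. Aldoc, Ldhb, Slc16a3 and P4ha2 kept their sign in 21 of 21 settings, at −2.05 to −0.71, −0.79 to −0.50, −1.03 to −0.44 and −1.10 to −0.63.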
